A study of Mus musculus with 36 samples.

Results

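Spaca1 (sperm acrosome associated 1; ENSMUSG00000028264 in GENCODE) lies on the minus strand of chromosome 4, between 34024874 and 34050191 in the mm10 genome. The CpGs described here are all those read in the gene and in 5 kb on each side: 28 were listed in at least 1 library, of 3493603 autosomal CpGs in the whole series, and 25 of them were covered by 5 or more reads in at least 30 of 35 embryos. The gene was selected on the higher 5mC levels of its promoter in Tet1 knockout than in wild-type embryos, so that difference is described below by its values and is not tested.

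Spaca1 encodes a membrane protein of the acrosome, the vesicle over the sperm head whose contents are released at fertilization, and the gene is known for its expression in the testis. Promoters of such germline genes that are rich in CpGs can be silenced by 5-methylcytosine (5mC) in somatic cells. TET1 is a dioxygenase that oxidizes 5mC and thereby opens the path to its removal. No measurement of RNA was used here, so neither Spaca1 expression nor the labelled tissue could be checked against marker genes.

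The libraries came from single brains of mouse embryos at stage E11.5, strain 129S6.cg Tet1<tm1Koh>, each a separate embryo. Embryos were Tet1 wild type (WT), heterozygous (HET) or knockout (KO), and their dams had received a custom diet whose folic acid (FA) was in excess at 30 ppm, at the control level of 3 ppm, or depleted to 0.1 ppm. Every diet also held an antibacterial sulfa drug according to the study's methods. The targeted Tet1 allele is constitutive and so affects every tissue of the embryo, and each brain was used whole, so its values are averages over cell types. There were 3, 5 and 6 WT, HET and KO embryos on 30 ppm, 4, 3 and 5 on 3 ppm, and 2, 2 and 5 on 0.1 ppm, from 4 litters per diet. One more HET embryo on 0.1 ppm, replicate 2, was left out by the study and by the comparisons here. All embryos of a litter shared a diet, so a diet effect and differences among litters cannot be fully separated, and tests over embryos count littermates as independent.

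The 35 libraries in the comparisons held between 25.65 and 197.3 M CpG calls (M, calls times 1e6), and the mean coverage of a listed CpG was 12.1 to 61.5 reads. The library left out by the study held 23.2 M calls at a mean of 10.9 reads. The label of each embryo was compared with the Tet1 CpG that separated KO from WT most, at position 62884019 of chromosome 10. There, 7 WT libraries read 0 to 7.32% methylated, 10 HET libraries 8.33 to 69.2% and 15 KO libraries 69.6 to 100%. The remaining 3 went against their labels: the library labelled KO on 30 ppm, replicate 1 (45%), and those labelled WT on 30 ppm, replicate 2, and WT on 0.1 ppm, replicate 2 (36.36 and 40%). In the study's sample list the first of these embryos is heterozygous, while those labelled WT are wild type there too. For the libraries labelled WT the doubt rests on this CpG alone, at 33 and 15 reads. They are kept under their labels below, and the main values that rest on them are also given without them.

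The read CpGs fell into 3 groups, set by where the restriction enzymes of the assay cut. In the promoter, 19 CpGs were read between 34049919 and 34050130, a span of 212 bases that starts 61 bases downstream of the most upstream GENCODE start site. The downstream cluster of 11 CpGs lies between a TaqI site and an MspI site, 282 and 154 bases downstream of that start site. It holds 7 CpGs of the coding part of exon 1 and 4 of the 5′ UTR. The upstream cluster of 8 CpGs lies between TaqI sites 131 and 50 bases downstream of the start site, all in the 5′ UTR of the longest transcript and upstream of the start of a shorter one, at 34050039. The third group, 6 CpGs between 34031505 and 34031672, is intronic, and no CpG was listed within 1 kb of the third, internal start site. Of 232 CpGs that the genome holds in the gene and its flanks, 12.1% were listed. A stretch of 500 bases centred on the promoter CpGs was 67.6% G and C with a ratio of observed to expected CpGs of 0.737, against 0.171 over the gene and its flanks.

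The sequences below are shown because they hold the CpGs with the largest and the smallest KO difference of the promoter and, for the coding exon, the highest and the lowest KO mean of its cluster. They are from the genome assembly GRCm38.p6 (mm10) of RefSeq. Both are read on the minus strand, 5′ to 3′, with CpGs in capitals. The first is the start of the coding part of exon 1, from the start codon to the last CpG that was read, chr4:34049919-34049996, with the 7 coding CpGs of the downstream cluster, and the second is 30 bases at chr4:34050112-34050141 with the outermost 4 CpGs of the upstream cluster.
Start of the coding part of exon 1: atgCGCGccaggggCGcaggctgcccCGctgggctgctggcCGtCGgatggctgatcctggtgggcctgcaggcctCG
Upstream cluster: aatggggtgaCGCGCGgtgaCGcctcaatg

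At the promoter CpGs that were read, Spaca1 was mostly unmethylated in WT embryos and mostly methylated in KO embryos. These are 19 of the 50 CpGs that the genome holds within 1 kb of the most upstream start site. All of them lie downstream of it. The promoter level of an embryo is the mean 5mC level of the 19 CpGs, each covered by 5 or more reads, in percent. On 3 ppm FA the 4 WT embryos read 11.99, 7.65, 15.7 and 12.98%, and the 5 KO embryos 75.8, 63.3, 77.5, 72.7 and 70.8%. The means were 12.1% ± 3.34 (SD, n = 4) and 72.0% ± 5.55 (SD, n = 5), 59.9 points apart. The groups were far from overlapping on this diet.

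On 30 ppm FA the 3 WT embryos read 11.6, 24.3 and 8.32%, the value of 24.3% being the library whose Tet1 CpG went against its label. The 6 KO embryos read from 33.1% to 70.5% with a median of 61.8%, and the lowest, replicate 1, is likewise the library that went against its label. The difference between the means, 14.7% ± 8.44 (SD, n = 3) and 56.5% ± 14.1 (SD, n = 6), was 41.7 points, and 51.2 points without these libraries.

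On 0.1 ppm FA the WT embryos read 9.52 and 26.0%, the latter from the library labelled WT whose Tet1 CpG was intermediate. The 5 KO embryos read 60.2, 74.2, 76.2, 74.4 and 71.1%, a mean of 71.2% ± 6.45 (SD, n = 5) against 17.8% ± 11.7 (SD, n = 2). The difference was 53.4 points, and 61.7 points with the single WT embryo that remains without that library. That embryo was read in the downstream cluster only, where the difference was 52.8 points. With the other WT library alone, read in both clusters, the promoter difference was 45.2 points.

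Over all diets, the promoter level of each of the 16 embryos labelled KO was above that of every WT and every HET embryo in the comparisons. The highest WT embryo read 26.0%, the highest HET embryo 32.0% and the lowest KO embryo 33.1%. That KO library is listed as heterozygous by the study, and the HET embryo left out by the study read 35.9%, above it. In the upstream cluster 15 of the 16 KO embryos were above every WT and every HET embryo. Without the 3 libraries the highest WT embryo read 15.7% and the lowest of 15 KO embryos 45.9%. A comparison of groups that were chosen for being apart carries no further weight, and no test is given.

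**Figure D1:**
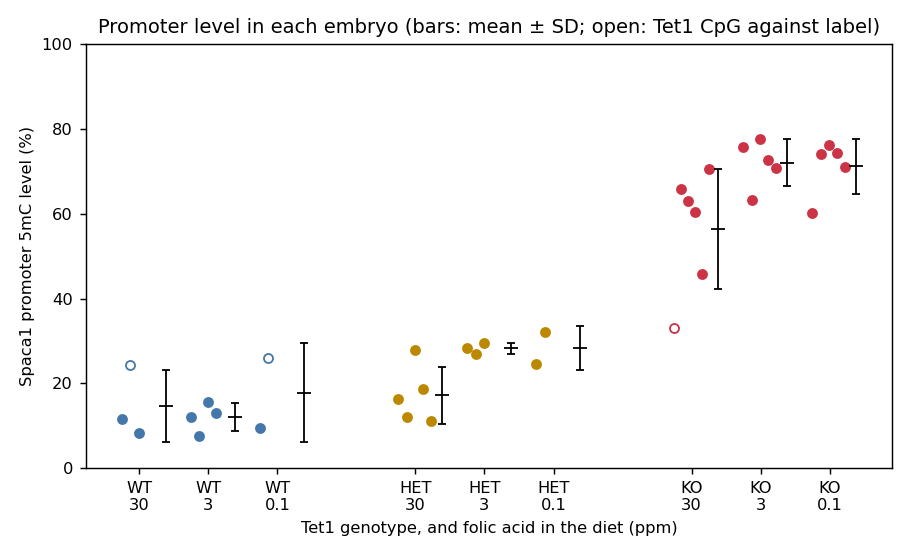
Spaca1 promoter 5mC level in percent (vertical axis) of each embryo by Tet1 genotype and by folic acid in the diet in ppm (horizontal axis); filled points are embryos, open points the 3 libraries whose Tet1 CpG went against the label, and bars the mean ± SD. Every KO point sits at 33.1% or higher and every WT and HET point at 32.0% or lower. The HET embryo left out by the study, at 35.9%, is not shown.

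In the group means, HET embryos sat between WT and KO and nearer to WT. Their comparison with WT shares the WT embryos with the contrast on which the gene was selected, so its p-values are not independent support. On 3 ppm the 3 HET embryos read 28.4, 26.9 and 29.5%, all above the 4 WT embryos. The difference of 16.2 points gave an exact permutation p = 0.0286, the smallest this design allows (two-sided), and 0.0808 after Benjamini-Hochberg adjustment over the 16 comparisons of promoter levels made here. Of these, 4 set KO against HET and have small p-values through the selection of the gene. Over the other 12, an adjustment chosen after seeing the data, it was 0.121 (exact permutation).

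On 30 ppm the 5 HET embryos read 16.4, 11.97, 28.0, 18.6 and 11.1%, overlapping the 3 WT embryos. The mean was 17.2% ± 6.76 (SD, n = 5), 2.47 points above WT (exact permutation p = 0.661, adjusted p = 0.821). The difference was 7.24 points without the library labelled WT, replicate 2, and -0.75 points without WT replicate 3. On 0.1 ppm the HET embryos read 24.6 and 32.0%, one below and one above the higher WT library, and 10.6 points apart from WT in the mean. Leaving out 1 embryo moved this difference between 2.31 and 18.8 points, the latter without the library labelled WT, replicate 2. WT replicate 1 was read in the downstream cluster only. Within that cluster the difference was 0.75 points, or 2.80 points without the library labelled WT, replicate 2. In the upstream cluster, with that library as the only WT embryo, it was 7.29 points. For the promoter level on 0.1 ppm the exact permutation p was 0.667 in a design of 2 against 2 embryos that cannot go below 0.333. The HET embryo on 0.1 ppm that the study left out read 35.9%.

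Averaged over the diets with equal weight, HET exceeded WT by 9.74 points (exact permutation within diets, p = 0.0108, adjusted p = 0.0576 over 16 and 0.121 over 12 comparisons, 10 HET and 9 WT embryos). In this average WT on 0.1 ppm, replicate 1, was read in the less methylated downstream cluster only. With embryos read in both clusters the difference was 6.99 points. It was 6.45 points in the downstream and 8.68 points in the upstream cluster. Of the 10 HET embryos, 8 were above the WT median of 11.99%. Without the 3 libraries HET exceeded WT by 14.1 points (exact permutation p = 0.000907, adjusted p = 0.00726 over 16 and 0.0109 over 12 comparisons), and 8 of 10 HET embryos were above all 7 WT embryos. The 2 WT libraries left out were picked for high 5mC at the Tet1 CpG that separated KO from WT most. They were also the highest WT embryos at the Spaca1 promoter (24.3 and 26.0%). Leaving them out lowers the WT mean whatever the HET levels are, so this result is no independent support. The call was lost within either cluster, at 8.32 points downstream and 12.6 points upstream without the 3 libraries (exact permutation, adjusted p = 0.0821 for both over 46 comparisons), and the only WT embryo left on 0.1 ppm was read in the downstream cluster alone. The HET difference from WT thus amounted to 18.8% of the KO difference from WT, or 24.5% without these libraries. When labels were permuted within the 5 litters that held both genotypes, HET exceeded WT by 8.68 points (exact permutation p = 0.125).

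KO exceeded HET by 42.0 points averaged over the diets (16 KO and 10 HET embryos), or 43.5 points without the library labelled KO on 30 ppm, replicate 1. The KO levels are those on which the gene was selected, so this comparison is a description with no test. On 30 ppm the gap was 39.3 points, or 43.9 points without that library. It was 43.8 points on 3 ppm and 42.86 points on 0.1 ppm, and within the 8 litters that held both genotypes it was 40.8 points.

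The 9 groups were ordered from WT on 3 ppm (12.1%) through WT on 30 ppm (14.7%), HET on 30 ppm (17.2%), WT on 0.1 ppm (17.8%), HET on 3 ppm and 0.1 ppm (both 28.3%) to KO on 30 ppm (56.5%), on 0.1 ppm (71.2%) and on 3 ppm (72.0%). Neighbours in this order overlapped in their embryos except WT on 0.1 ppm with HET on 3 ppm and HET on 0.1 ppm with KO on 30 ppm. Without the 3 libraries the WT means were 9.52% on 0.1 ppm (1 embryo, downstream cluster only), 9.97% on 30 ppm and 12.1% on 3 ppm, which reverses the order of the WT groups and puts them all below HET on 30 ppm.

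The gain in KO was present at each of the 19 promoter CpGs, with differences between the KO and WT means of 33.0 to 60.1 points and a median of 52.6 points, or 42.8 to 68.3 points with a median of 59.1 points without the 3 libraries. In the coding exon, the CpG at 34049981 had the highest KO mean (74.5% ± 15.3, SD, n = 15), beside 18.8% ± 7.63 (SD, n = 9) in WT. The neighbouring pair at 34049951 and 34049954, 3 bases apart in the printed exon, had the lowest KO means, 46.3 and 44.6%, with WT means of 6.15 and 5.40%. The last coding CpG that was read, at 34049919, differed most within the coding part, by 58.4 points (7.72% in WT, 66.1% in KO).

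In the upstream cluster the KO means ran from 52.7% at 34050128 to 83.1% at 34050089. The 30 printed bases hold the CpGs with the largest and the smallest difference of all 19: at 34050120 it was 60.1 points (16.8% in WT, 76.9% in KO), and at 34050128 it was 33.0 points (19.7% in WT, 52.7% in KO). The CpG at 34050126 differed by 46.5 points and that at 34050130 by 56.0 points. The largest and the smallest gain of the promoter thus lie 8 bases apart, at CpGs read on the same molecules.

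The CpGs at 34050120 and 34050130 each fall in a TGACG motif, the half-site of the cAMP response element (CRE), while the pair between them does not. CRE elements are bound by CREB family factors, and the testis relative CREM is known for driving genes of maturing sperm cells. Searched on both strands of the RefSeq promoter windows around each start (GRCm38.p6), TGACG had 2 matches in each of the 2 windows listed for Spaca1, and 20.8% of 32851 windows held at least 1 match, 5.01% at least 2. The full element TGACGTCA and the E-box CACGTG had no match in the Spaca1 windows, against 1.79% and 7.15% of all windows with one. The E2F core TCCCGC matched 2 times, upstream of the CpGs that were read, and 20% of all windows held it. TGACG is part of TGACGTCA, and the TGACG and TCCCGC matches at Spaca1 do not overlap. The motifs were chosen with the Spaca1 sequence in view, and a match is a description of letters only.

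**Figure D2:**
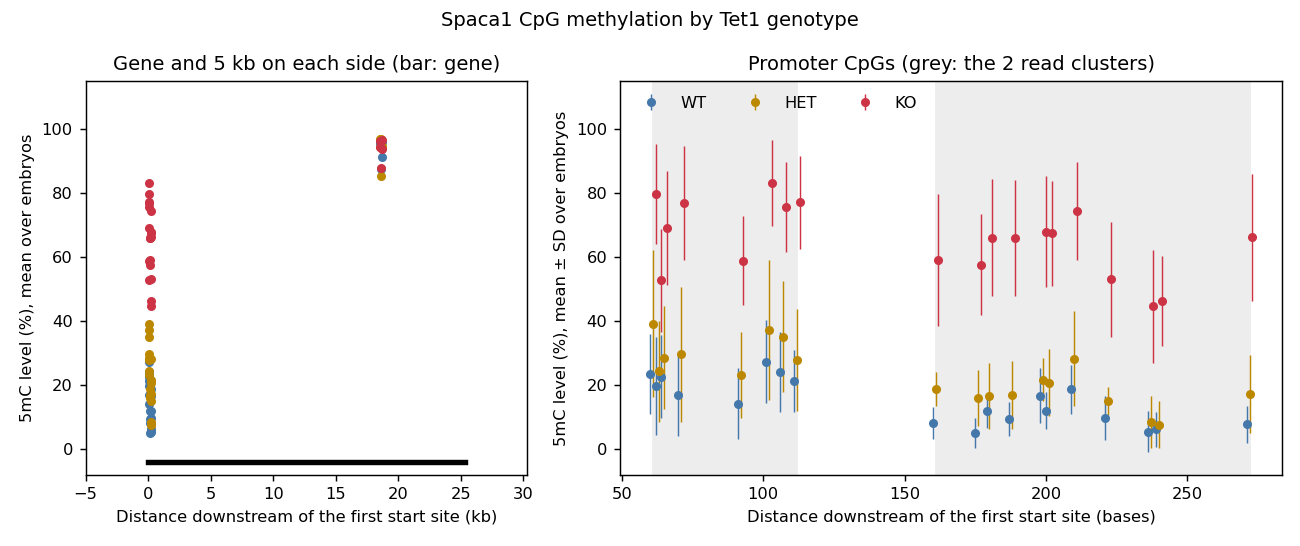
Mean 5mC level in percent (vertical axes) of the 25 Spaca1 CpGs by Tet1 genotype, against the distance downstream of the most upstream start site in kb (left, with the gene as a black bar) and in bases (right, mean ± SD over embryos, genotypes shifted by 1 base for legibility, grey bands the promoter read clusters). KO means lie between 44.6 and 83.1% at the promoter, where WT means lie between 5.10 and 27.4%, and the genotypes coincide at the intronic CpGs.

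The CpGs that were read do not fix the borders of the gain. By the rule of neighbouring CpGs that differ by 20 points or more, the gain ran over all 19 promoter CpGs, from 34049919 (58.4 points) to 34050130 (56.0 points) (212 bases). Thresholds of 10 and 30 points gave the same ends and could not have moved them. Every promoter CpG gained 33.0 points or more, and the next CpGs with values are far off and highly methylated in WT. Thresholds above 33.0 points, which would break the run, were not tried. Towards the gene body the first evaluated CpG outside was 34031672, 18.2 kb away, where KO and WT read 96.2 and 95.6%. A CpG at that WT level has no room for a gain of 20 points and cannot show that the gain had ended. Between them the genome holds 129 CpGs without a value, among them the nearest, 9 bases on. Upstream, no CpG was listed to the end of the 5 kb flank, in which the genome holds 15, and the 500 bases next to the G and C rich stretch hold none. Where the gain stops is therefore not shown on either side.

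The 6 intronic CpGs were highly methylated in every genotype. Their mean level was 93.7% ± 2.80 (SD, n = 9) in WT, 93.8% ± 3.33 (SD, n = 10) in HET and 94.2% ± 2.75 (SD, n = 16) in KO, with embryos from 87.1 to 100%. Only 1 KO embryo was above every WT embryo.

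Outside the gain, 50 CpGs within 100 kb of the start site had values in enough embryos (5 KO and 3 WT), the 6 intronic CpGs of Spaca1 among them. Their KO minus WT differences ran from -5.91 to 11.6 points with a median of 1.66 points, and 0 reached 20 points. Their median WT level was 87.2%, against 14.2% at the 19 promoter CpGs, so most of them had no room for such a gain and the count says little about how far it reaches. Upstream, the nearest was 28.7 kb from the gain, with 75.9% in WT and 83.6% in KO. The genes with a start site in this window are Gm22010 (snoRNA, 43.9 kb away), Gm25623 (snRNA, 35.9 kb) and Gm12753 (lincRNA, 80.7 kb). The nearest protein-coding neighbours, added after the values were seen, start farther out, Cnr1 (the cannabinoid receptor of neurons) at 126 kb and Akirin2 (a nuclear protein) at 501 kb.

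**Figure D3:**
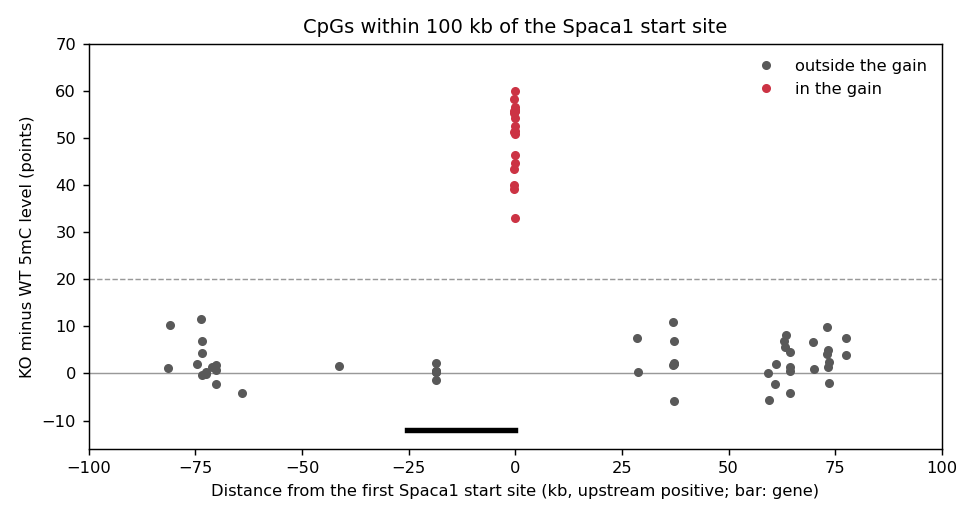
Difference of the KO and WT mean 5mC levels in points (vertical axis) of each CpG with values in at least 5 KO and 3 WT embryos, against its distance in kb from the most upstream Spaca1 start site (horizontal axis, upstream positive, gene as a black bar); the dashed line marks 20 points. The 19 promoter CpGs lie between 33.0 and 60.1 points and the other 50 between -5.91 and 11.6 points.

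The clusters were read on separate fragments, and all CpGs of a cluster were read on nearly the same molecules: read numbers within an embryo differed by at most 1 among the CpGs of the upstream cluster in all 35 embryos and among those of the downstream cluster in 31. The CpGs of a cluster are therefore not independent readings of an embryo. Median read numbers per embryo ranged from 7 to 116 in the downstream and 6 to 99 in the upstream cluster. At the median of 17 reads, a level of 47.1% has a 95% Wilson interval of 26.2 to 69.0%, and at 6 reads, the fewest used, 50% has one of 18.8 to 81.2%. These intervals cover counting error only. The downstream cluster was not read in KO on 3 ppm, replicate 1, and the upstream cluster had 4 reads in WT on 0.1 ppm, replicate 1, so the promoter levels of these embryos rest on 1 cluster.

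The upstream cluster was the more methylated of the pair in 28 of 33 embryos with both. It exceeded the downstream cluster by 11.1 points ± 9.71 (SD, n = 8) in WT, 13.6 ± 16.1 (SD, n = 10) in HET and 10.5 ± 14.04 (SD, n = 15) in KO. The widest gap was 46.2 points in HET on 0.1 ppm, replicate 1 (5.19% downstream, 51.4% upstream), at 7 and 9 reads.

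Across diets, KO promoter levels were lower on 30 ppm than on 3 ppm by 15.5 points (exact permutation p = 0.0303, adjusted p = 0.0808 over 16 and 0.121 over 12 comparisons, 6 and 5 embryos), which did not pass the adjustment. Over litter means, with 4 litters on each diet, they were 13.6 points lower (exact permutation p = 0.0571). Without the library labelled KO on 30 ppm, replicate 1, they were 10.9 points lower (exact permutation p = 0.0397). The 0.1 and 3 ppm KO embryos differed by -0.83 points (exact permutation p = 0.817). In HET, 30 ppm was 11.1 points below 3 ppm (exact permutation p = 0.0714, adjusted p = 0.143), and 0.1 ppm and 3 ppm differed by 0.073 points (exact permutation p = 1). In WT, the differences from 3 ppm were 2.67 points on 30 ppm (exact permutation p = 0.657) and 5.70 points on 0.1 ppm (exact permutation p = 0.4), and -2.11 and -2.56 points without the 3 libraries. The last value sets 1 embryo read in the downstream cluster only against embryos read in both. Within the downstream cluster the differences without these libraries were 1.73 and 2.12 points.

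The clusters were also compared between diets one by one, a choice made after the values were seen. In the upstream cluster, the 5 KO embryos on 0.1 ppm read 82.1, 88.6, 77.9, 89.6 and 77.8%, and the 5 on 3 ppm 75.8, 67.3, 73.8, 76.1 and 74.3%. The groups did not overlap and differed by 9.76 points (exact permutation p = 0.00794, the smallest the design allows, adjusted p = 0.0544 over the 48 comparisons of both clusters and their mean). Its side of the threshold depended on which comparisons were adjusted together. The adjusted p was 0.0423 over the 16 comparisons of the upstream cluster alone, 0.0456 over the 46 left without the 3 libraries, none of which is in this comparison, and 0.148 over 36 without those of KO with HET (exact permutation). Littermates among these embryos shared a dam, and over 4 litter means on each diet the difference was 9.15 points (exact permutation p = 0.0286, the smallest the design allows). KO embryos on 30 ppm read from 34.6 to 71.6% with a median of 62.4%, 12.99 points below those on 3 ppm (exact permutation p = 0.0303, adjusted p = 0.0909), or -7.81 points apart without replicate 1 (exact permutation p = 0.0397, adjusted p = 0.101).

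HET embryos had the same order of diets in the upstream cluster: 51.4 and 49.3% on 0.1 ppm, 41.1, 31.9 and 30.0% on 3 ppm, and 6.25 to 36.9% on 30 ppm with a median of 17.2%. The differences from 3 ppm, 16.03 points on 0.1 ppm (exact permutation p = 0.2 in a design that cannot go below 0.1) and -13.8 points on 30 ppm (exact permutation p = 0.125), did not pass. In WT the upstream cluster averaged 18.5% ± 6.59 (SD, n = 4) on 3 ppm and 17.6% ± 11.2 (SD, n = 3) on 30 ppm, and on 0.1 ppm it was read only in the library whose Tet1 CpG went against its label, at 43.1%.

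The downstream cluster showed another order. KO embryos averaged 69.8% ± 8.20 (SD, n = 4) on 3 ppm, 62.4% ± 11.2 (SD, n = 5) on 0.1 ppm and 53.6% ± 17.3 (SD, n = 6) on 30 ppm, and the ranges overlapped. The differences from 3 ppm were -7.41 points on 0.1 ppm (exact permutation p = 0.341) and -16.2 points on 30 ppm (exact permutation p = 0.143). HET embryos averaged 12.3% ± 10.1 (SD, n = 2) on 0.1 ppm, 23.9% ± 4.95 (SD, n = 3) on 3 ppm and 14.8% ± 4.32 (SD, n = 5) on 30 ppm. The difference between the clusters within an embryo was 20.9 points in KO on 0.1 ppm and 3.09 points on 3 ppm, 17.8 points apart (exact permutation p = 0.0714, adjusted p = 0.286 over 4 such comparisons, 5 and 4 embryos), so a contrast between the clusters did not pass the test.

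**Figure D4:**
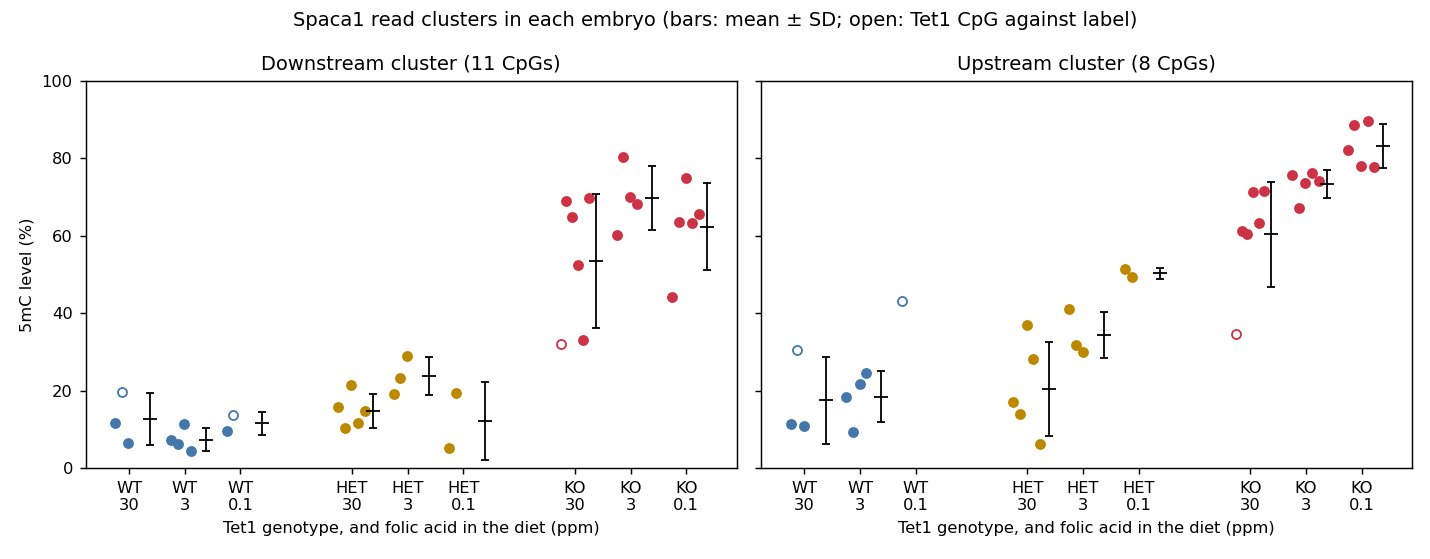
5mC level in percent (vertical axis) of the downstream cluster (11 CpGs, left) and the upstream cluster (8 CpGs, right) in each embryo by Tet1 genotype and folic acid in ppm (horizontal axis); filled points are embryos, open points the 3 libraries whose Tet1 CpG went against the label, and bars the mean ± SD. In the upstream cluster KO points on 0.1 ppm lie at 77.8% or higher and those on 3 ppm at 76.1% or lower.

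Among KO embryos the brain phenotype made no detectable difference at the promoter. Embryos were labelled as normal, as inHB (brain malformation in the study's sample list), or with an open neural tube (NTD, exencephaly). Compared within diets, 5 NTD embryos were 4.85 points above 7 normal ones (exact permutation p = 0.361, adjusted p = 0.64), with values of 0.74 and 8.95 points without KO on 30 ppm, replicate 5 and replicate 6, and 4 inHB embryos were 0.8 points below them (exact permutation p = 0.931, adjusted p = 0.993). One of the inHB embryos is the library labelled KO on 30 ppm, replicate 1, without which the difference was 3.76 points. Outside KO, HET on 30 ppm, replicates 3 and 4, were labelled inHB and read 28.0 and 18.6%. The normal HET embryos on that diet read 16.4, 11.97 and 11.1%. The library labelled WT on 0.1 ppm, replicate 2, was also labelled inHB and read 26.0%. HET against WT on these diets thus set groups of unlike phenotypes against each other, and phenotype was not tested outside KO.

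The same comparisons were read from a fit to all 1 kb tiles of the autosomes, in which the Spaca1 promoter spans 2 tiles, the coding exon tile starting at 34049001 and the start site tile starting at 34050001. A quasi-binomial logistic model was tested by an F test, and calls needed a difference of at least 10 points beside an adjusted p below 0.05. HET against WT on 3 ppm called both Spaca1 tiles: the coding exon tile read 22.9% ± 5.66 (SD, n = 3) in HET and 8.27% ± 4.16 (SD, n = 4) in WT, 14.6 points apart (quasi-binomial adjusted p = 5e-05), and the start site tile 31.4% ± 3.39 (SD, n = 3) and 14.3% ± 3.94 (SD, n = 4), 17.1 points apart (quasi-binomial adjusted p = 6.69e-05). In that comparison 0.763% of 69080 tiles were called. Both Spaca1 calls held when any 1 of the 7 embryos was left out, with adjusted p up to 0.00807 in the quasi-binomial fit. The gene was selected on a contrast that holds these WT embryos. The p-values, the share of tiles called and this stability are therefore no independent support. These p-values can be too small, since CpGs of a cluster share molecules and depths were unequal, and the exact permutation test of the promoter level on the same embryos gave the adjusted p = 0.0808 above.

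On the other diets HET against WT did not call Spaca1. The start site tile differed by 2.44 points on 30 ppm (quasi-binomial adjusted p = 0.983), where 0 of 64501 tiles (0%) were called and 3700 had an unadjusted p under 0.05, and by 4.74 points on 0.1 ppm over 4 CpGs (quasi-binomial adjusted p = 0.905), where 0.0947% of tiles were called. The coding exon tile differed by 2.51 and -1.54 points. Without the library labelled WT on 30 ppm, replicate 2, the start site tile on 30 ppm differed by 7.85 points (quasi-binomial adjusted p = 0.0187), short of the 10 points a call needs. Whether the HET difference itself differs between diets was not tested.

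With all embryos, no diet comparison called a Spaca1 tile that was tested, and the coding exon tile was not tested between diets in KO. In KO the start site tile, there resting on the 8 CpGs of the upstream cluster, was 12.99 points lower on 30 than on 3 ppm (quasi-binomial adjusted p = 0.697) and 9.76 points higher on 0.1 than on 3 ppm (quasi-binomial adjusted p = 0.748, and 6.06 points without KO on 3 ppm, replicate 1), with 0% of 64998 and 59900 tiles called (0 tiles each, and 4540 and 3251 with an unadjusted p under 0.05). In HET it was 13.4 points lower on 30 ppm (quasi-binomial adjusted p = 0.575, 0.0212% of tiles called) and 7.01 points higher on 0.1 ppm (quasi-binomial adjusted p = 0.804, 0.0947% called). The coding exon tile differed in HET by -6.97 and -11.8 points on 30 and 0.1 ppm (quasi-binomial adjusted p = 0.693 and 0.863). In WT the coding exon tile differed by 5.13 and 4.32 points (quasi-binomial adjusted p = 0.878 and 0.898). The start site tile in WT differed by 1.23 points on 30 ppm (adjusted p = 1 in the quasi-binomial fit, 0 of 58912 tiles or 0% called, 2620 with an unadjusted p under 0.05) and by 3.94 points on 0.1 ppm over 4 CpGs (quasi-binomial adjusted p = 0.966, 0.082% called). Without the library labelled WT on 30 ppm, replicate 2, the first value was -4.18 points. Without WT on 0.1 ppm, replicate 1, the second was 18.6 points and called (quasi-binomial adjusted p = 7.74e-11), resting on the library labelled WT on 0.1 ppm, replicate 2, alone, whose Tet1 CpG went against its label.

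The KO gain at the start site tile was 12.1 points smaller on 30 than on 3 ppm (quasi-binomial interaction, adjusted p = 0.731, with 0% of 57129 tiles called and 3882 at an unadjusted p under 0.05). Without the 3 libraries this value was -0.42 points. The same contrast for 0.1 ppm could not be fitted at Spaca1, because no promoter tile had 3 CpGs covered in all embryos.

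The promoters most like Spaca1 over the 9 group means, of 14615 protein-coding genes with a readable promoter tile, were those of Cartpt, Fam166b, Nphs1, Lhcgr and Foxi2. The start site tile of Spaca1 had group means of 14.3 to 20.01% in WT, 18.0 to 38.4% in HET and 59.1 to 77.1% in KO. Cartpt (the precursor of the neuropeptide CART), with 15.6 to 21.2% in WT and 58.9 to 71.1% in KO, differed from it by 4.56 points on average over the groups. Fam166b differed by 5.92 points, Nphs1 (nephrin, of the kidney filter) by 5.98 points, Lhcgr (the receptor of luteinizing hormone) by 6.16 points and Foxi2 (a forkhead transcription factor) by 6.20 points. In each of these genes, the lowest KO group mean (56.0% in Nphs1) was above the highest HET group mean (37.8% in Lhcgr). This largely follows from their choice by likeness to Spaca1 over the same group means and is no separate result.

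Other genes of the acrosome and of sperm and egg fusion were described from a list of 46 genes without Spaca1. A promoter tile was called higher in KO than in WT for 3 of 17 tested list genes on 30 ppm, where 15.2% of all 5771 tested protein-coding genes were called, for 7 of 16 on 3 ppm, where 34.4% were called, and for 6 of 17 on 0.1 ppm, where 25.6% were called. The shares of the list, 17.6, 43.8 and 35.3%, were within 10 points of the background on every diet. Its median KO minus WT difference was 4.65, 8.75 and 8.45 points, against 4.93, 6.77 and 6.37 points over all genes. None of the list was called lower (backgrounds of 0%, 0.0691% and 0.0164%).

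The list genes called on all diets were Spaca6, Lyzl4 and Dcst1, and they began from other levels than Spaca1. Spaca6, which is needed for the fusion of sperm and egg, rose from 54.0 to 85.9% on 3 ppm, by 31.9 points (quasi-binomial adjusted p = 1.08e-12). Lyzl4 (a lysozyme-like protein of sperm) rose from 66.4 to 87.9% (quasi-binomial adjusted p = 3.48e-08), and Dcst1 (another fusion factor of sperm) from 62.3 to 78.6% (quasi-binomial adjusted p = 4.81e-06). Their WT promoter tiles were thus above 50% methylated, while the start site tile of Spaca1 was at 18.5% on 3 ppm over the 8 CpGs covered in all embryos of that comparison. Of the 21 list genes tested on at least 1 diet, 14 were called on none. The shares of all genes called on every diet or on none were not computed, so neither count sets the list apart.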

How the data were processed

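Per the labels, DNA of 36 single brains was digested with MspI and TaqI, oxidized and bisulfite converted, so that 5hmC reads as unmethylated. The authors trimmed reads with Trim Galore 0.6.10, aligned them to mm10 with Bismark 0.24.1 and removed duplicates with UMI-tools. The deposited tables give a methylated fraction and a read count (coverage) per CpG. Methylated reads were the fraction times the count; levels were used at 5 or more reads. Sequence differences between the strain and the reference genome were not examined. Differential regions deposited by the authors hold their own comparisons and were not used.

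The promoter level averaged CpGs within 1 kb of the start site covered in at least 30 of 35 embryos. Groups came from the sample labels; two-sided exact permutation tests of group means were adjusted by Benjamini-Hochberg over 16 comparisons, 4 of which (KO against HET) are given without a test. Tiles of 1 kb with 3 or more CpGs covered in every embryo and an SD of at least 2 points were fitted by quasi-binomial logistic regression in Python 3.11.15 (numpy 2.4.6, scipy 1.17.1), with dispersions moderated as in limma 3.58.1. The code was tested on simulated data: tile p-values were too small where reads of a library were correlated and depths unequal. The gene, lists and comparisons were chosen with earlier results of these data known. Named genes were the 5 promoters with the smallest mean absolute difference from Spaca1, list genes called on all diets, and genes starting within 100 kb. Coverage minimum, weighting, CpG set, doubted libraries, single embryos and litter were varied.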

Additional observations from a re-analysis of the deposited data

Results flagged for a closer look

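Among 20 sets of values, from groups of 4 to 6 embryos at the promoter, its clusters and the intron, 2 values stood far from the others of their group, where chance alone would flag about 1 in 20. The upstream cluster of the library labelled KO on 30 ppm, replicate 1, read 34.6%, and the other 5 KO embryos on that diet 60.6 to 71.6%. This is a library whose Tet1 CpG went against its label. The upstream cluster of KO on 3 ppm, replicate 2, read 67.3%, below the 73.8 to 76.1% of the other 4, at 26 reads.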

How the results depend on the processing

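Of 554 values recomputed under the alternatives for 37 results, 501 kept their direction and side of the threshold, 35 changed direction (1 of them also gaining a call), 12 lost (all for KO against HET on 30 ppm, given without a test above) and 5 gained a call, and 1 moved beyond the spread. Both HET against WT calls on 3 ppm held in every alternative (quasi-binomial adjusted p up to 0.0177). Each alternative used WT embryos on which the gene was selected, so this is no independent support. At 10 reads, KO on 0.1 against 3 ppm became 4.86 points and inHB against normal 3.36. Without the 3 libraries, which takes out the 2 highest WT embryos, HET against WT over all diets was 14.1 points and passed. In that setting 30 and 0.1 against 3 ppm in WT were -2.11 and -2.56, inHB 3.76, the coding exon tile of HET against WT on 0.1 ppm 0.16 and the start site tile of 30 against 3 ppm in WT -4.18. With the HET embryo left out by the study, HET against WT over all diets was 10.6 points, and that coding exon tile 0.84. The first of these passed in a family that holds the KO against HET comparisons (exact permutation, adjusted p = 0.0256). Chosen after seeing the data, the downstream cluster alone gave 38.8 points for KO against HET on 30 ppm and -11.5 for 0.1 against 3 ppm in HET; the upstream cluster alone gave -0.94 for 30 against 3 ppm in WT, 9.76 for 0.1 against 3 ppm in KO (passing, exact permutation, adjusted p = 0.0423), -0.25 for NTD and 40.14 for KO minus WT on 0.1 ppm; embryos with both clusters gave 0.12 for 0.1 against 3 ppm in KO. With the replicate block by litter, the start site tile of HET against WT on 30 ppm was -3.33 points, uncalled as without the block, and the litter block changed no call. Litter means of the main values, and their adjustment without the KO against HET comparisons, changed no call. That adjustment was not rerun with the HET embryo left out by the study or with single embryos left out. Passes in those settings thus rest on families that hold the KO against HET comparisons, whose p-values are small through the selection of the gene. Whether such passes hold without those comparisons was not tested. The causes were not tested.

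Leaving out 1 embryo at a time, HET against WT at the promoter ranged from -0.75 to 7.24 points on 30 ppm. Over all diets it ranged from 6.99 to 12.5, passing without either of the WT libraries against their label. Those passes rest on families that hold the KO against HET comparisons, and whether they hold without these was not tested. KO against HET on 30 ppm ranged from 36.5 to 43.9. For 0.1 against 3 ppm the ranges were -3.62 to 3.77 in HET, -2.56 to 13.9 in WT and -3.02 to 1.93 in KO. For 30 against 3 ppm in WT it was -2.11 to 5.88, for inHB -5.47 to 3.76 and for NTD 0.74 to 8.95. Tile ranges for HET against WT were -0.79 to 6.20 (coding exon) and -0.72 to 7.85 (start site) on 30 ppm, and -8.50 to 5.43 and -2.68 to 12.2 on 0.1 ppm. For the start site tile in WT they were -4.18 to 4.40 for 30 against 3 ppm and 3.11 to 18.6 for 0.1 against 3 ppm, and in KO 6.06 to 11.1 for 0.1 against 3 ppm. The value of 18.6 was called (quasi-binomial adjusted p = 7.74e-11) and rests on the library labelled WT on 0.1 ppm, replicate 2, alone, assumed to vary like the embryos on 3 ppm, and on 12 CpGs in place of 4. Over all tiles the calls ranged from 0 to 538 for HET against WT on 30 ppm, 369 to 832 on 3 ppm and 9 to 463 on 0.1 ppm. For 30 and 0.1 against 3 ppm they were 0 to 118 and 133 to 452 in WT, 15 to 71 and 31 to 121 in HET, and 0 and 0 to 6 in KO. Restricting to CpGs covered in all 35 embryos, or fitting all groups at once, was not run, since 0 promoter tiles of Spaca1 had 3 such CpGs.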

Other observations

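The downstream cluster of KO on 30 ppm, replicate 5, read 33.2% while its upstream cluster read 63.4%, the widest gap of a KO embryo on that diet, at 19 and 25 reads. In KO on 0.1 ppm, replicate 1, the clusters read 44.2 and 82.1%, at 7 reads each.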
